A study of Homo sapiens with 12 samples.

Results

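ACAT2, HMGCS1, MVK, PMVK, MVD, IDI1, FDPS, FDFT1 and SQLE encode 9 enzymes of the mevalonate and early sterol pathway, from the joining of acetyl-CoA units to the epoxidation of squalene. They were chosen by symbol as the enzymes of these steps, and all 9 of these genes were found among the 26485 genes of each deposited table. The cells were HT-29, a widely used human line from a colon adenocarcinoma, and all groups were treated for 8 h. The groups were DMSO; TNFα at 10 ng/ml; TSZ, which is TNFα at 10 ng/ml with the Smac mimetic SM-164 at 50 nM and the caspase inhibitor zVAD at 20 μM; and TSZ with the RIPK1 kinase inhibitor Nec-1s at 10 μM (TSZ+Nec-1s). TSZ is a standard way to induce necroptosis in these cells, and Nec-1s blocks it. PolyA RNA was sequenced in 3 libraries per group, 12 in all, from 1 cell line, and the labels do not say whether the 3 are separate cultures. The spread behind each p-value is therefore that among libraries, which may be technical.

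The mevalonate pathway makes the isoprene units from which cells build cholesterol, the lipid tails of prenylated proteins, dolichol and ubiquinone. Its genes are classical targets of SREBP transcription factors, which are released from the endoplasmic reticulum when membrane sterol is low and which act on promoters together with factors such as NF-Y.

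The promoters of these genes are shown as a description, and a link between their sequence and the response to TSZ was not tested. RefSeq (GRCh38.p14) gave promoters for 6 of the 9 genes, HMGCS1, MVK, PMVK, MVD, IDI1 and FDPS, with more than 1 start for HMGCS1 and IDI1. Below are the 250 bases before the annotated start for HMGCS1, which rose most, for MVK and FDPS, and for PMVK, which was not called higher, each written 5′ to 3′ in the direction of the gene with NF-Y boxes in capitals.
HMGCS1 promoter 1 chr5:43313413-43313662 (minus strand): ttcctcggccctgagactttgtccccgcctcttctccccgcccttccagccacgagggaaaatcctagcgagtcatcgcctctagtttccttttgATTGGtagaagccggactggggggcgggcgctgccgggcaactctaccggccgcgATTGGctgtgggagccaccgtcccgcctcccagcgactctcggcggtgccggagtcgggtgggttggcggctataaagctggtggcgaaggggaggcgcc
MVK chr12:109573544-109573793 (plus strand): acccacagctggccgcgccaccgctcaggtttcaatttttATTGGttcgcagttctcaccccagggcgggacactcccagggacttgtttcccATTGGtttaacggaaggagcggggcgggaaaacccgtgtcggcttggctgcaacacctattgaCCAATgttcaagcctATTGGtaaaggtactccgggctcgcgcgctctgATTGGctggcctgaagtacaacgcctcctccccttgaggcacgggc
FDPS chr1:155308616-155308865 (plus strand): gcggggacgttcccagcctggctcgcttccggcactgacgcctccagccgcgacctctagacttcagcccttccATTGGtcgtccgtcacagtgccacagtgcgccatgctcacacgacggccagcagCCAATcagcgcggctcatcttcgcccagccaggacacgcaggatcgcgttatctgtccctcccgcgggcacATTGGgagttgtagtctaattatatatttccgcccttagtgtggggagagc
PMVK chr1:154936720-154936969 (minus strand): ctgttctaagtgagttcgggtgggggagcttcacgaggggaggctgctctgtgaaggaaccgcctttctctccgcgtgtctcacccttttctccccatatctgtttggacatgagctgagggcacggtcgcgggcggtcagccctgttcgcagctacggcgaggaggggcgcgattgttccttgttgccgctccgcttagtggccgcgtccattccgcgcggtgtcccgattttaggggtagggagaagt
The NF-Y box was searched as CCAAT on both strands, so that ATTGG in capitals is a box on the opposite strand, over 250 bases before to 50 bases after each start. MVK held 5 boxes, between 210 and 46 bases before its start. FDPS held 3, MVD held 3, and the first HMGCS1 promoter held 2, at 155 and 100 bases before the start. IDI1 promoters 2 and 3 held 3 and 2 boxes, and in promoter 2 a pair of boxes on opposite strands overlap. PMVK, the second HMGCS1 promoter and the first IDI1 promoter held 0. Of 35116 promoters of the same length in the table, 34.614% held at least 1 box and 3.258% held at least 3. The sterol regulatory element, searched as TCACNCCAC on both strands, had 0 matches in the promoters of these 6 genes and was present in 1.128% of all promoters. Only these letters were searched, so 0 matches does not show that the genes lack such an element. ACAT2, FDFT1 and SQLE had no promoter to search. These matches describe letters in a window, and binding was not measured.

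The levels below are normalized reads, the whole reads of a gene in a library divided by that library's size factor. The deposited tables give 1 mean per group, from which whole reads per library were solved. Within the range searched, the solution was unique for all 9 enzymes in every group. The letters a, b and c order a group's libraries by size factor, and equal letters in different groups are unrelated. The libraries held an estimated 8803037 to 12730029 reads. Of 10 colon epithelium markers, 8 were solved, and EPCAM, CDH1, KRT20, VIL1 and LGALS4 had means of at least 10 normalized reads, while CDX1, CDX2 and CDH17 were below 10. The solved markers summed to between 14990 and 15148 normalized reads with DMSO and to between 26526 and 27143 with TSZ. The leukocyte genes PTPRC, CD3E and MS4A1 and the endothelial gene CDH5 were at 0 in all 12 libraries. The leukocyte list, 4 of whose 8 genes had means of at least 10, summed to between 15037 and 15354 normalized reads in the DMSO libraries and to between 19893 and 21263 in the TSZ libraries. Nearly all of that was LYZ, at means of 14922 and 19873. The fibroblast and endothelium list, 3 of whose 8 genes had means of at least 10, summed to between 53.4 and 198 with DMSO and to between 213 and 493 with TSZ. The part of these lists in the results was not tested. Normalized reads are relative to the other RNA of a library, so fewer cells and less RNA per cell cannot be told apart.

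With TSZ, 8 of the 9 enzymes were higher than with DMSO and 0 were lower, at an adjusted p under 0.05 in limma over 11724 genes. In the same comparison 25.9% of all genes tested were higher and 24.2% were lower. The median log2 fold change was 1.44 over the 9 enzymes and -0.02 over all genes tested. PMVK was the enzyme not called. In each of the 8 called enzymes the lowest TSZ library lay above the highest library of DMSO, of TNFα and of TSZ+Nec-1s, which held for 19.4% of all genes tested.

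**Figure D1:**
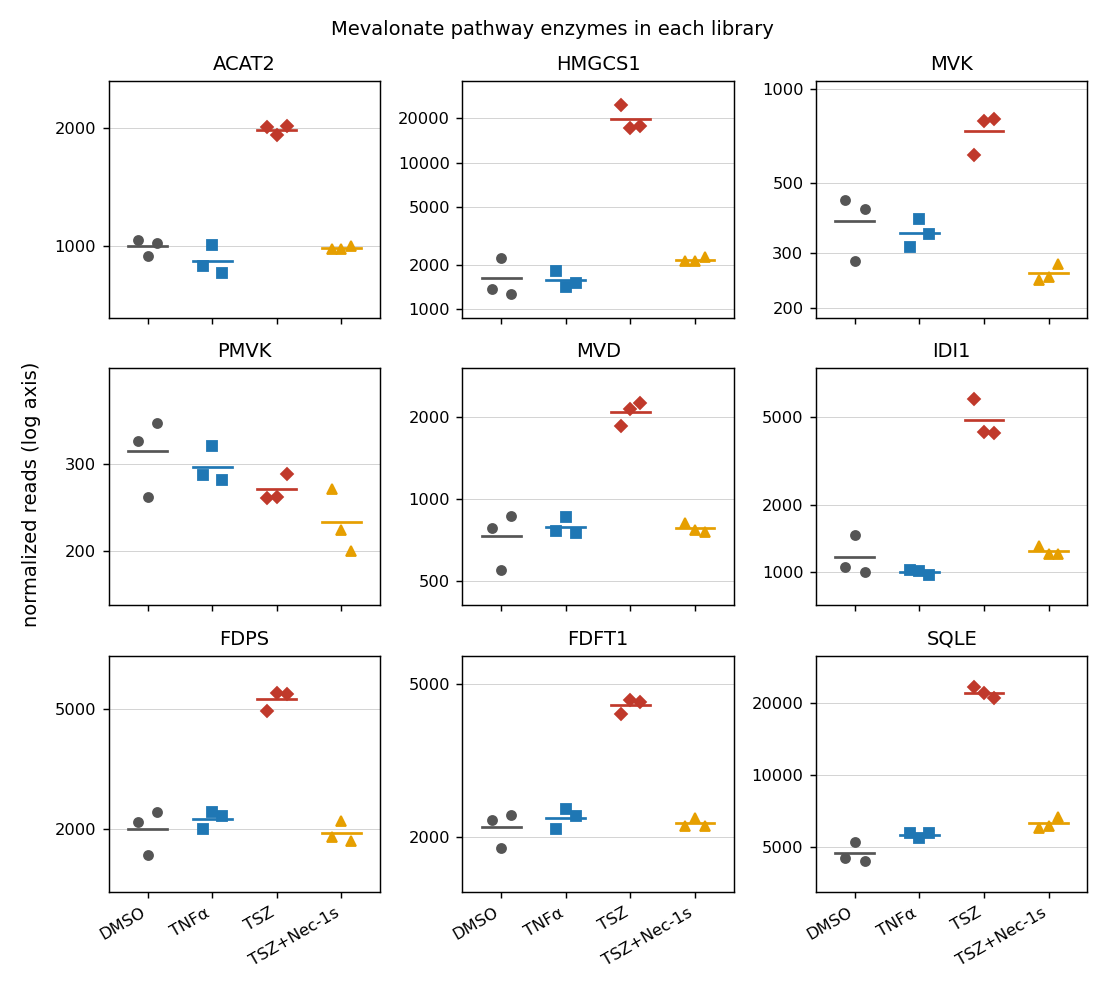
Normalized reads (log axis, scaled separately for each gene) of the 9 enzymes in the 12 libraries, by group; points are libraries a, b and c from left to right and lines are group means. The 3 TSZ libraries stand above all other libraries in every panel except PMVK, where they overlap with the libraries of each other group.

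ACAT2 (chr6:159762045-159779112, hg38, plus strand), the cytosolic thiolase that joins 2 acetyl-CoA molecules, was at 1035, 943 and 1013 normalized reads in DMSO libraries a, b and c. The TSZ libraries held 2006, 1908 and 2014. The fold change was 1.98 (95% interval 1.74 to 2.25, adjusted p = 9.31e-07), with little spread within either group. ACAT2 shares 454 exon bases with TCP1 and 133 with SOD2, both on the opposite strand, and the authors counted reads without regard to strand. TCP1 did not pass the test with TSZ (log2 fold change 0.13, adjusted p = 0.331). SOD2, the mitochondrial superoxide dismutase, rose from 211 ± 6.60 to 5770 ± 58.8 (SD, n = 3). In TSZ+Nec-1s, SOD2 was at 925 ± 62.5 while ACAT2 was at 986 ± 10.8, against 997 ± 48.0 with DMSO.

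HMGCS1 (chr5:43287470-43313512, minus strand), the cytosolic HMG-CoA synthase, whose first promoter is printed above, was at 1372, 2215 and 1257 normalized reads with DMSO. With TSZ it reached 24836, 17289 and 17679. The rise was 12.6-fold (9.48 to 16.7, adjusted p = 5.55e-09), the largest of the 9 enzymes, and HMGCS1 ranked 140th of 11724 genes by log2 fold change. TNFα alone left it at 1806, 1420 and 1507, within the range of the DMSO libraries. The TSZ+Nec-1s libraries held 2111, 2115 and 2273, so that 2 of them lay below the highest DMSO library. The annotation places an antisense lncRNA without a symbol over 2497 of the 6627 exon bases of HMGCS1, and it was not analysed here.

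MVK (chr12:109573255-109598125, plus strand), the kinase that phosphorylates mevalonate, had the lowest level per kb of exon in all 4 groups. It was at 442, 283 and 413 normalized reads with DMSO and at 615, 788 and 797 with TSZ. The fold change was 1.95 (1.53 to 2.48, adjusted p = 0.000298). MVK and MMAB, a gene of cobalamin metabolism that lies head to head with it, share 225 exon bases. MMAB did not pass the test (log2 fold change -0.03, adjusted p = 0.871).

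PMVK (chr1:154924740-154936719, minus strand), the next kinase of the pathway, was at 334, 258 and 364 normalized reads with DMSO. It was at 256, 257 and 287 with TSZ, and the groups overlapped. Its fold change was 0.844 (0.671 to 1.06, adjusted p = 0.201), an interval that lies below the fold change of each of the other 8 enzymes. PMVK was lower with TSZ in some other fits, with a log2 fold change of -0.39 (adjusted p = 0.0263) without DMSO library b and of -0.29 (adjusted p = 0.032) after correction of each library for its GC trend.

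MVD (chr16:88651935-88663161, minus strand), the decarboxylase that makes isopentenyl diphosphate, was at 782, 548 and 863 normalized reads with DMSO. The TSZ libraries held 1847, 2140 and 2240. MVD rose 2.88-fold (2.32 to 3.57, adjusted p = 1.87e-06).

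IDI1 (chr10:1039152-1049119, minus strand), the isomerase that converts isopentenyl to dimethylallyl diphosphate, was at 1052, 1477 and 999 normalized reads with DMSO. It reached 6017, 4256 and 4237 with TSZ, a rise of 4.12-fold (3.27 to 5.20, adjusted p = 2.56e-07). IDI1 shares 643 exon bases with the antisense RNA IDI2-AS1, which went from 27.6 ± 7.11 to 217 ± 46.3 (adjusted p = 2.61e-06). Without strand, the source of a read in the shared stretch cannot be told. The paper names HTSeq's intersection-strict mode, and how it assigned such reads was not tested. IDI1 has 3 annotated pseudogenes and FDPS has 8, whose reads could be split from theirs.

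FDPS (chr1:155308748-155320666, plus strand), farnesyl diphosphate synthase, stands where the sterol and prenylation branches part. It was at 2103, 1639 and 2272 normalized reads with DMSO and at 4937, 5652 and 5602 with TSZ. The fold change was 2.71 (2.27 to 3.24, adjusted p = 5.78e-07). RUSC1-AS1, which shares 693 exon bases with FDPS on the opposite strand, stayed at means between 1.53 and 3.51 normalized reads in the 4 groups.

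FDFT1 (chr8:11795573-11839395, plus strand), squalene synthase, commits farnesyl units to sterols. It was at 2219, 1879 and 2284 normalized reads with DMSO and at 4183, 4540 and 4500 with TSZ. The rise was 2.08-fold (1.81 to 2.38, adjusted p = 8.57e-07).

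SQLE (chr8:124998497-125022283, plus strand), squalene epoxidase, a second point of control in cholesterol synthesis, was at 4496, 5267 and 4390 normalized reads with DMSO. The TSZ libraries held 23290, 22100 and 21053. SQLE rose 4.71-fold (4.14 to 5.35, adjusted p = 3.49e-10), the smallest adjusted p of the 9 enzymes, and ranked 403rd of 11724 genes by log2 fold change.

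**Figure D2:**
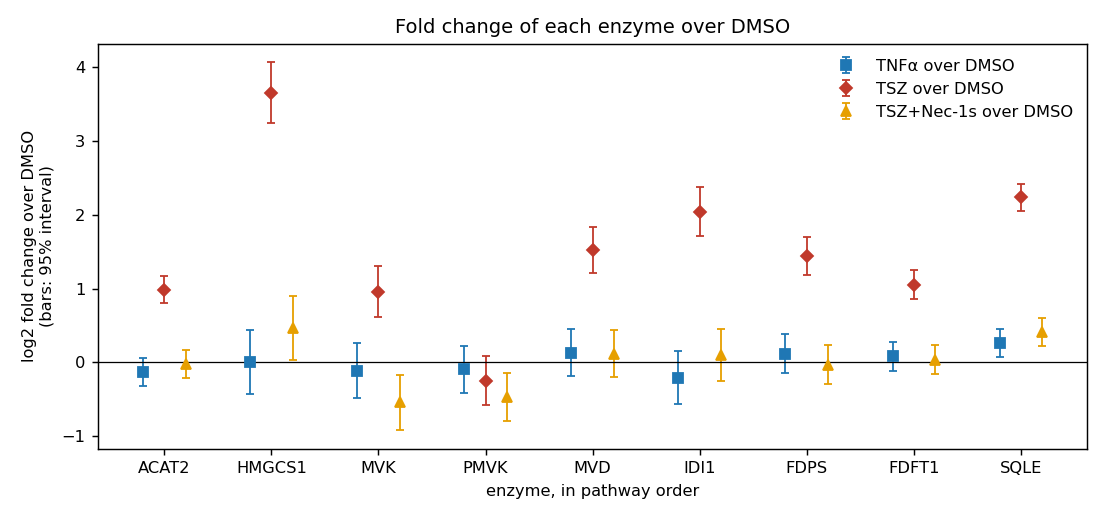
Log2 fold change over DMSO of each enzyme in pathway order for TNFα, TSZ and TSZ+Nec-1s; bars are 95% intervals from limma. With TSZ, 8 enzymes lie between 0.96 and 3.65 and PMVK lies at -0.24, while all values for TNFα and TSZ+Nec-1s lie between -0.54 and 0.47.

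TNFα alone called 0 of the 9 enzymes higher and 0 lower than DMSO in limma, beside 3.11% and 1.08% of all genes tested. At an unadjusted p under 0.05 there was 1, SQLE, against 15.1% of all genes tested. Its TNFα libraries held 5716, 5462 and 5735 normalized reads, all above the highest DMSO library, for a fold change of 1.20 (1.05 to 1.37, adjusted p = 0.145). SQLE passed the test in 3 other fits, for example with a log2 fold change of 0.34 (adjusted p = 0.0166) without DMSO library b. The log2 fold changes of the other 8 enzymes lay between -0.20 and 0.13.

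To separate what TSZ added to TNFα, TSZ was also compared with TNFα. The same 8 enzymes were higher with TSZ and 0 were lower, beside 22.7% and 21.6% of all genes tested. The fold change was 12.5 for HMGCS1, 4.75 for IDI1 and 3.93 for SQLE, and it lay between 1.96 and 2.62 for the other 5. These comparisons share the TSZ libraries, so that their results are not independent.

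TSZ was also compared with TSZ+Nec-1s. No group had Nec-1s alone, so a need for the RIPK1 kinase and other effects of Nec-1s cannot be told apart. With TSZ, 8 of the 9 enzymes were higher than with TSZ+Nec-1s and 0 were lower, whereas 22.6% and 19.8% of all genes tested were called. HMGCS1 was 9.08-fold higher (log2 fold change 3.18, SE 0.18, adjusted p = 3.06e-08). IDI1 was 3.84-fold higher and SQLE was 3.53-fold higher, with adjusted p = 6.37e-07 and 3.62e-09. MVK was 2.83-fold higher (2.21 to 3.64), FDPS 2.77-fold, MVD 2.65-fold and FDFT1 2.02-fold, and ACAT2 was higher as well (adjusted p = 1.25e-06). PMVK overlapped between the groups, at 267, 221 and 200 with TSZ+Nec-1s (fold change 1.16, adjusted p = 0.279).

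With TSZ+Nec-1s, 1 enzyme, SQLE, was higher than with DMSO and 0 were lower, beside 7.11% and 5.74% of all genes tested. SQLE was at 6035, 6128 and 6678 normalized reads, all above the DMSO libraries. Its fold change was 1.33 (1.17 to 1.52, adjusted p = 0.00719), against 4.71 with TSZ. MVK was at 246, 251 and 276, all below the DMSO libraries, and the other 7 enzymes overlapped with DMSO. Of all genes tested, 14.2% had all TSZ+Nec-1s libraries above and 15.2% all below the DMSO libraries. ACAT2 was at 977, 982 and 998 normalized reads, MVD at 818, 771 and 755, and IDI1 at 1316, 1208 and 1207. FDPS was at 1884, 2125 and 1824 and FDFT1 at 2146, 2250 and 2144, within the range of their DMSO libraries. The log2 fold changes of these 5 enzymes lay between -0.03 and 0.12, and none of them passed the test here, though some did in other fits given below. HMGCS1 had a log2 fold change of 0.47 (SE 0.20, adjusted p = 0.152), MVK of -0.54 (SE 0.17, adjusted p = 0.061) and PMVK of -0.46 (SE 0.15, adjusted p = 0.0626). The adjusted p of MVK and that of PMVK lay near the threshold. Without DMSO library b, HMGCS1 was higher (0.72, adjusted p = 0.00541), and MVK (-0.74, adjusted p = 0.0019) and PMVK (-0.60, adjusted p = 0.00495) were lower, while the share of all genes called rose to 19.0% higher and 14.4% lower. With all libraries and the GC trend removed, HMGCS1 (0.27, adjusted p = 0.00283), MVK (-0.44, adjusted p = 0.0028) and PMVK (-0.37, adjusted p = 0.0233) passed as well, and so did MVD (0.19, adjusted p = 0.0489). That fit called 15.1% of genes higher and 12.1% lower. MVK and PMVK passed after scaling to total reads. Without DMSO library b, TNFα library a and TSZ library a, HMGCS1, MVK and PMVK passed too. There IDI1 was also higher (0.28, adjusted p = 0.00206) and FDPS lower (-0.17, adjusted p = 0.0387), beside 26.9% and 23.1% of genes. TSZ+Nec-1s against TNFα called 0 of the 9 in either direction in limma, beside 1.08% of all genes tested higher and 0.256% lower. At an unadjusted p under 0.05 there were 3 (HMGCS1, MVK and PMVK), against 17.8% of all genes tested.

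Within DMSO, TNFα and TSZ, libraries differed in a way that followed the GC content of transcripts, with DMSO library b, TNFα library a and TSZ library a at the strongest correlation of their group. The Spearman correlation across genes between a gene's deviation from its group and its transcript GC was -0.79, -0.59 and -0.74 in these libraries. Since deviations within a group sum to 0, the others of these groups were positive, between 0.21 and 0.76, and the TSZ+Nec-1s libraries lay between -0.14 and 0.23. The genes are not independent replicates, and no p is given. In DMSO library b, HMGCS1 (38.95% GC) lay 0.50 above its group on the log2 scale and IDI1 (41.07% GC) lay 0.35 above. MVD (63.69% GC) deviated by -0.39 and MVK (58.24% GC) by -0.40 in the same library. TSZ library a showed the same order, with 0.34 for HMGCS1 and for IDI1 and -0.24 for MVK. With the GC trend removed, the TSZ over DMSO log2 fold change of HMGCS1 was 3.65 with an SE of 0.05, in place of 0.19, and that of IDI1 was 2.10. ACAT2 (42.17% GC) did not follow the trend in DMSO library b, at -0.08, and its SE rose from 0.09 to 0.13.

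**Figure D3:**
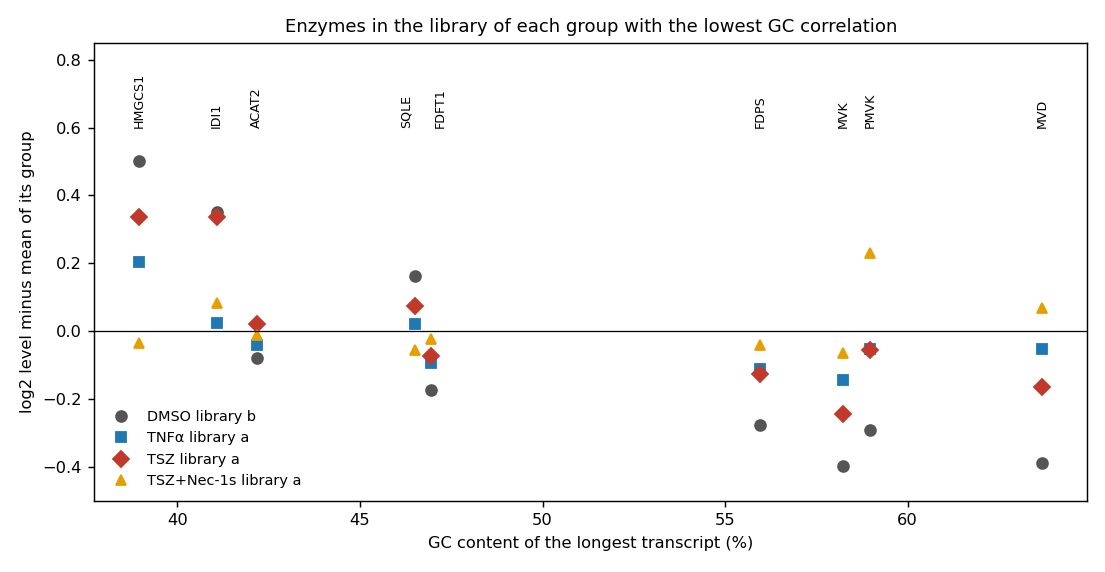
Deviation of each enzyme from the mean of its group (log2) against the GC content of its longest transcript, in the library of each group with the most negative correlation with GC. In DMSO library b HMGCS1 lies at 0.50, MVD at -0.39 and MVK at -0.40, whereas in TSZ+Nec-1s library a HMGCS1 lies at -0.04.

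Per kb of exon, SQLE had the highest level in all 4 groups and MVK the lowest. With DMSO, SQLE was at 1096 ± 111 normalized reads per kb, FDPS at 539 ± 88.3 and FDFT1 at 419 ± 42.8 (SD, n = 3). ACAT2 at 378 ± 18.2, PMVK at 318 ± 55.0, IDI1 at 274 ± 61.0 and HMGCS1 at 244 ± 78.9 followed. Neighbours from ACAT2 to HMGCS1 lay within 1.5 times the larger SD of each pair. MVD was at 155 ± 34.7 and MVK at 42.0 ± 9.40. With TSZ the order became SQLE at 5145 ± 260.0, HMGCS1 at 3008 ± 641, FDPS at 1452 ± 107, IDI1 at 1126 ± 238 and FDFT1 at 868 ± 38.5. HMGCS1 thus moved from the seventh place to the second, and PMVK, at 266 ± 17.3, to the eighth. Counted over the longest transcript in place of all exon bases, SQLE stayed highest and MVK lowest, and some middle places changed.

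**Figure D4:**
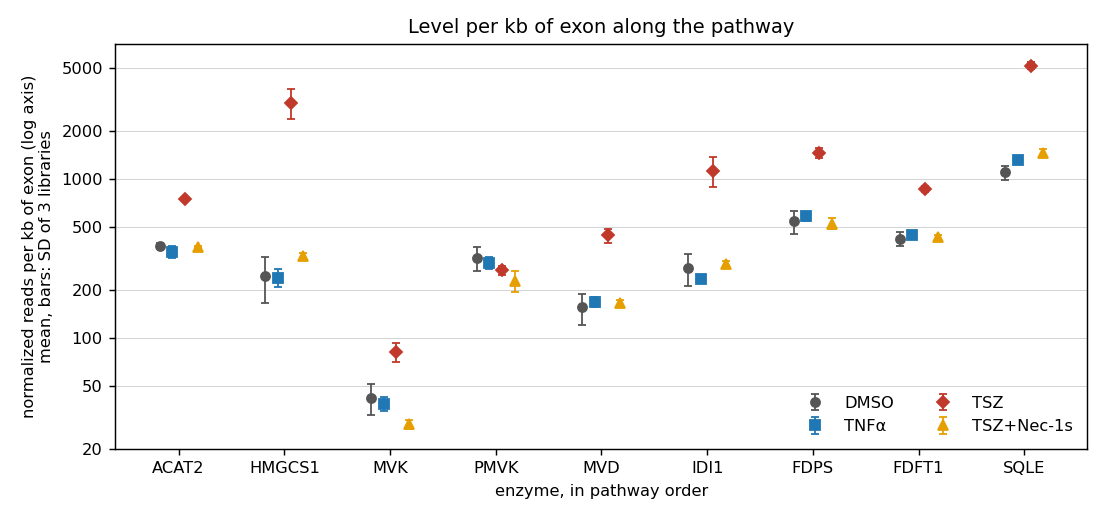
Normalized reads per kb of exon (log axis) of the enzymes in pathway order; points are group means and bars are SDs of 3 libraries. HMGCS1 goes from 244 with DMSO to 3008 with TSZ, while PMVK stays between 229 and 318 in the 4 groups.

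The 9 enzymes together took 0.148% ± 0.0078 of a library's reads with DMSO (SD, n = 3), 0.150% ± 0.0010 with TNFα and 0.160% ± 0.0032 with TSZ+Nec-1s. With TSZ they took 0.488% ± 0.052, and the lowest TSZ library, at 0.455%, lay above the highest DMSO library, at 0.157%. HMGCS1 supplied 11.5% of the enzymes' reads with DMSO and 32.3% with TSZ.

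**Figure D5:**
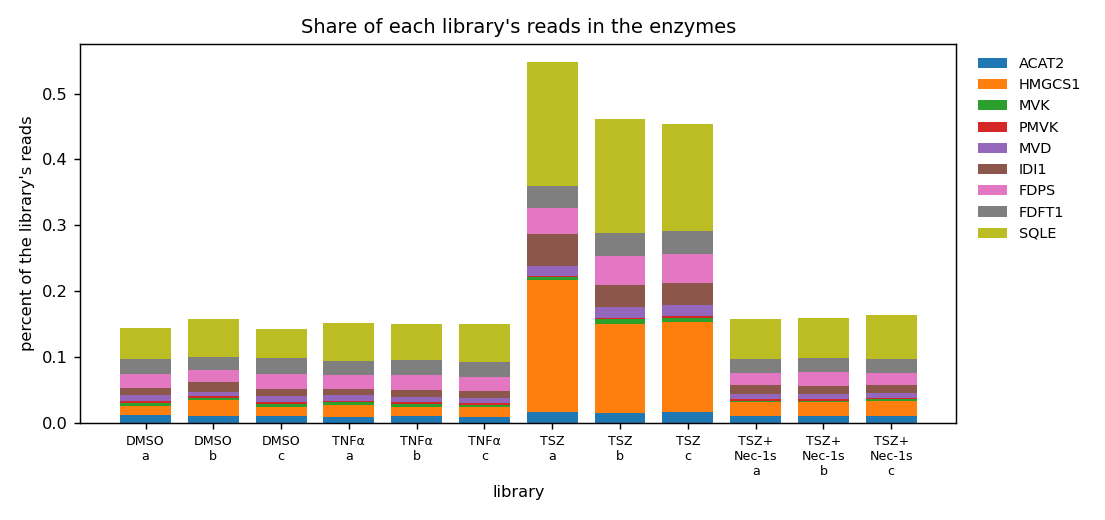
Percent of each library's reads in the 9 enzymes, stacked by enzyme, for the 12 libraries. The TSZ bars reach 0.455% to 0.548% and the other bars 0.143% to 0.163%, and HMGCS1 and SQLE make up most of the difference.

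Among paralogs and neighbours of the first steps, ACSS2 was higher with TSZ than with DMSO and IDI2 was lower. ACSS2, which makes cytosolic acetyl-CoA from acetate, rose from 94.5 ± 15.4 to 784 ± 98.5 (log2 fold change 3.04). IDI2, the paralog of IDI1, fell from 50.0 ± 8.40 to 19.1 ± 5.76 (log2 fold change -1.40, adjusted p = 0.00082), in the opposite direction to IDI1. ACAT1 and ACLY had log2 fold changes of 0.25 and 0.04 and did not pass the test.

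Of the 11 sterol enzymes that act after squalene epoxide, 8 were higher with TSZ and 0 were lower, against the 25.9% and 24.2% of all genes, with a median log2 fold change of 1.10. MSMO1 went from 348 ± 86.2 to 2528 ± 672 normalized reads and CYP51A1 from 749 ± 271 to 3122 ± 736. TM7SF2 and LBR, which both encode C14 sterol reductases, had log2 fold changes of -0.38 and -0.16 and did not pass the test. Both were called lower with the GC trend removed, where 9 of the 11 were higher and 2 lower, beside 33.8% and 30.8% of all genes. Without the 3 libraries described above TM7SF2 was lower, with 8 higher and 1 lower, beside 32.5% and 28.8%. Of the 15 genes of the isoprenoid branches, 4 were higher and 5 were lower (median -0.18), which is near the share of all genes. RABGGTB, a subunit of the Rab prenyl transferase, had a log2 fold change of 1.17, and RCE1, a protease of prenylated proteins, of 0.71. PDSS1, which makes the ubiquinone tail, fell by 1.11 on the log2 scale, and FNTB, a farnesyl transferase subunit at means of 21.9 and 9.16, fell by 1.11 as well (adjusted p = 0.0486).

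Of the 13 genes of SREBP control and cholesterol uptake, 8 were higher and 2 were lower with TSZ, beside the same 25.9% and 24.2% of all genes. INSIG1, which retains SREBP in the endoplasmic reticulum and is itself a target, rose from 519 ± 36.7 normalized reads to 11233 ± 442, and its mean with TSZ+Nec-1s was 530.2 ± 27.8. MBTPS1 and MBTPS2, the proteases that release SREBP, had log2 fold changes of -0.42 and -0.90. Of 6 fatty acid synthesis genes tested, 3 were higher and 3 were lower, with FASN at 1.06, ME1 at 0.66, ELOVL6 at -0.59 and FADS1 at -0.75. FADS1 was not called without the 3 libraries described above. Among proteins known to bind or degrade the enzymes, SEC14L2 (2.45) and MARCH6 (0.40), a ubiquitin ligase of SQLE, were higher. RNF139 (0.71, adjusted p = 0.0833) did not pass the test, but was called higher with the GC trend removed and without the 3 libraries. SEC14L2 was also higher than with DMSO in TNFα (1.06, adjusted p = 0.00797) and in TSZ+Nec-1s (1.67, adjusted p = 7.4e-05). After scaling to total reads, which shifted the median of all genes to -0.43 and called 14.1% of them higher and 48.5% lower, the counts higher and lower were 7 and 3 for the later sterol enzymes, 1 and 10 for the isoprenoid branches, 7 and 4 for SREBP control and 1 and 3 for fatty acid synthesis. RCE1, ME1 and MARCH6 were no longer called on that scale, and 0 called genes of these lists changed direction.

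The genes outside the pathway whose log2 level was most like the mean of the 9 enzymes were NEU1, ANKRD10, ZFP36, INSIG1, IL1RN, FAM102A, NR1D1, PIM1, LPIN1 and NR4A1, with Pearson's r between 0.9937 and 0.9964 over 12 libraries, among 9902 genes. The libraries fall into the 3 with TSZ and the other 9, so that r describes this contrast. Among the enzymes, r with their own mean, which each of them enters, lay between 0.89 and 0.99 for 8 and was -0.08 for PMVK.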

How the data were processed

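Per the paper and the submitters' processing notes, the authors used STAR to map reads to hg38, HTSeq to count them per gene without regard to strand and DESeq to scale the counts. The deposited signal values are the authors' means of scaled counts per group, in 6 tables of 26485 genes. The tables' fold change, log2 and p-value columns hold the authors' own comparisons and were not used. The paper and the labels name different RNA reagents and library kits.

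A deposited mean adds up 3 whole numbers of reads, each over its size factor, and reads per library were solved from it where 1 solution existed. In all, 26451 genes were solved in the 4 groups and 34 were not, the lowest at a mean of 22369. limma 3.58.1 (R 4.3.3) with precision weights was fitted to the 12 libraries in 4 groups over 11724 genes, those averaging 10 or more normalized reads. Adjustment was by Benjamini-Hochberg, with a threshold of 0.05. Fold changes carry 95% intervals. Up to a mean of 5000 every split of reads was searched. Above it, each library was searched from 0.25 to 2 times the mean. Both steps were tested on simulated data, the solving only at means below those of HMGCS1 and SQLE with TSZ. Intervals cover the spread between libraries only, and depth limits low genes most. Python 3.11.15 was used otherwise. GENCODE v44 (hg38) gave positions, lengths and GC content.

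The enzymes and the 6 context lists were chosen with earlier results of these data known. Named are all 9 enzymes, all genes of the first and last context lists, the 2 highest and 2 lowest genes by TSZ over DMSO in the other lists, the 10 genes most like the enzymes among those with a mean of at least 50, and overlapping genes. Some genes that this rule takes are not reported here. Alternatives were scaling to total reads, a minimum mean of 1, no precision weights (pseudocount 0.5), removal of each library's GC trend (98.3% of genes had a GC value), only the compared groups, leaving out the 3 libraries that follow GC, and leaving out each library.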

Additional observations from a re-analysis of the deposited data

How the results depend on the processing

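No TSZ over DMSO, TSZ over TNFα or TSZ over TSZ+Nec-1s call of the 8 enzymes was lost or reversed under any alternative run. The sizes did depend on the scaling. After scaling to total reads, the TSZ over DMSO log2 fold change was smaller in all 8. It was 0.57 in place of 0.99 for ACAT2, 0.55 in place of 0.96 for MVK and 0.64 in place of 1.05 for FDFT1. For HMGCS1 it was 3.24 in place of 3.65. Scaling to total reads moved the all-gene median of TSZ over DMSO from -0.02 to -0.43 (log2), and 1650 genes were then higher and 5684 lower, against 3039 and 2835. PMVK, at -0.66 on that scale, was then called, so that 1 enzyme was lower for TSZ over DMSO, beside 48.5% of all genes. Also 1 was lower with the GC trend removed (30.8% of all genes) and 1 without the 3 libraries that follow GC (28.8%). For TSZ over TNFα 1 was lower after scaling to total reads, beside 42.4% of all genes. For TNFα over DMSO 1 was higher with the GC trend removed (7.93% of all genes) and 1 without the 3 libraries (7.05%). For TSZ+Nec-1s over DMSO 3 were higher with the GC trend removed (15.1% of all genes) and 3 without the 3 libraries (26.9%). In the same comparison 2 were lower after scaling to total reads (10.8% of all genes). With the GC trend removed 2 were lower (12.1%), and without the 3 libraries 3 were lower (23.1%). For TSZ+Nec-1s over TNFα 2 were higher and 2 lower with only these groups in the fit (17.0% and 9.83% of all genes). Without the 3 libraries 3 were higher and 3 lower (22.1% and 19.1%). That comparison called 127 genes higher and 30 lower in the fit of all groups, 1988 and 1152 with only these groups, and 2590 and 2242 without the 3 libraries. The cause was not tested. Leaving out 1 library at a time gave 0 to 1 enzymes higher for TNFα over DMSO and 0 to 1 lower for TSZ over DMSO. For TSZ+Nec-1s over DMSO it gave 1 to 2 higher and 0 to 2 lower. The upper values came without DMSO library b, when 3.25% of all genes were higher for TNFα over DMSO. In that fit 26.7% were lower for TSZ over DMSO, and 19.0% higher and 14.4% lower for TSZ+Nec-1s over DMSO. With solved genes only as the denominator, the enzymes took 0.560% of reads in TSZ, 0.160% in TNFα and 0.168% in TSZ+Nec-1s libraries. No paired analysis was possible because the deposited group means tie no recovered library to a replicate number.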
